A study of Mus musculus with 3 samples.

Results

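Short retained introns were followed in normal mouse liver: introns that were spliced out of some transcripts of a gene and kept inside an exon of others, with a listed interval of at most 300 bases. The interval counts the last base of the exon before and the first base of the exon after. The stretches between them, taken as introns, ran from 27 to 298 bases, with a median length of 128.5 bases. The shortest match no annotated intron. A member was a pair of a retained form and a spliced form with the same outer exon ends, both listed in at least 1 library, and with a mean of at least 1 FPKM for both forms together. FPKM is a transcript level in fragments normalised for transcript length and for library size, summed here over the assembled transcripts that carry a form. Of 6895 pairs of any length and level, 1072 were members; they covered 1054 different introns in 810 genes. A further 183 short pairs had both forms listed and were left out by the FPKM minimum, and 1606 longer pairs met every other condition.

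The 3 bulk RNA libraries were the wild-type, healthy liver group of a series on liver cancer, from the inbred strain C57BL/6, with replicates numbered 1 to 3. The labels used here give no age, and tumours were not analysed here. Nothing in the labels says that the replicates came from separate animals, so every p-value measures only the spread between these libraries, which may be technical. The libraries are labelled male, and the files went against that label. The largest event in Xist, the RNA that silences one X chromosome in female cells, had 65.7, 53.9 and 46.4 FPKM in replicates 1, 2 and 3, while no event was listed in Eif2s3y, Kdm5d, Uty or Ddx3y, all on the Y chromosome. The tissue matched its label by its markers. The largest event in albumin (Alb) had 25367, 30592 and 27018 FPKM, whereas the bile duct markers Krt19, Krt7, Epcam and Sox9 stayed between 0.00325 and 1.34 FPKM. Of the 7 hepatocyte markers only Ttr had no listed event. Events of Kupffer cell and sinusoidal endothelial markers were listed in every library, so transcripts of these cells are part of the values.

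The spliceosome recognises an intron by short sequences at its ends, in most introns GT at the start and AG at the end, with a branch point and a run of pyrimidines before the end. Very short introns are recognised across the intron itself, and retention in mammals is known to be frequent among introns that are short and rich in G and C. A retained intron often brings a stop codon into the reading frame; such a transcript may be held in the nucleus or degraded by nonsense-mediated decay. Other introns lie inside an exon of the main protein-coding transcript, and there the unspliced form is the ordinary messenger RNA.

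Sequences of 9 introns are shown because the results turn on them. They were read from GENCODE M21 transcripts (build GRCm38) whose exon spans the intron, and run 5′ to 3′ on the gene's strand. Capitals mark the first 2 and last 2 bases and the first stop codon in frame, where the intron holds one. The first 4 introns were retained in over 95% of their transcripts in every library, and a protein-coding transcript keeps each of them in an exon. They lie in Bsg (chr10:79710725-79710839, plus strand), Spr (chr6:85136932-85137060, minus), Clcn4 (chr7:7291727-7291819, minus) and Xpot (chr10:121611554-121611673, minus).
Bsg: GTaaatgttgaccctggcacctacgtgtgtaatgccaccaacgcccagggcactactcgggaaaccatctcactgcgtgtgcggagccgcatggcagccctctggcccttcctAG
Spr: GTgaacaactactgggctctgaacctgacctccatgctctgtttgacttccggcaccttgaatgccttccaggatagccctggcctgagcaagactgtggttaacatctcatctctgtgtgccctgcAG
Clcn4: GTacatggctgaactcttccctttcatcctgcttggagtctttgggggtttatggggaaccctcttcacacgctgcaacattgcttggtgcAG
Xpot: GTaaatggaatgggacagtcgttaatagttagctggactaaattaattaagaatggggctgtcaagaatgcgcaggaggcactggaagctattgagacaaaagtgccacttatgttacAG
The next 3 had abundant retained forms that are annotated only in other kinds of transcript. They lie in C8g (chr2:25498944-25499013, minus), Slc38a3 (chr9:107655381-107655584, minus) and Nr1i3 (chr1:171217222-171217316, plus).
C8g: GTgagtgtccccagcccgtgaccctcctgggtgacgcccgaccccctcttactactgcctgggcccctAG
Slc38a3: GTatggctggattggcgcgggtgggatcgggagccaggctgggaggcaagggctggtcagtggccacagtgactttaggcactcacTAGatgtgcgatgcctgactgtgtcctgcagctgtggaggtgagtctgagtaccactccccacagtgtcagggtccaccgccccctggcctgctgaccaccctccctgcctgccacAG
Nr1i3: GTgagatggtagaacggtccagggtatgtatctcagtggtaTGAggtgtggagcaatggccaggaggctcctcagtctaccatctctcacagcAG
The last 2 had almost no retained form. They lie in Rpl13a (chr7:45127093-45127208, minus) and Drap1 (chr19:5424276-5424360, minus).
Rpl13a: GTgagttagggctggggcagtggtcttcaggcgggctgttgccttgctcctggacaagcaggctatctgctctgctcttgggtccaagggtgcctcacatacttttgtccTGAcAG
Drap1: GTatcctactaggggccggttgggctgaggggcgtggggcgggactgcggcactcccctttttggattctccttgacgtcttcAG

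Retention was expressed as the retained percent, 100 times the FPKM of the retained form over the sum of both forms. Since the members were chosen because both forms were listed, the level of this percent is a description. Its median over the short introns was 6.32%, 4.89% and 3.80% in replicates 1, 2 and 3, over 1057, 1055 and 1057 pairs with a value. Pairs under 5% made up 47.8%, 50.2% and 52.7% of these, and pairs at 50% or more made up 17.5%, 14.8% and 16.2%. Pairs at 95% or more made up 7.57%, 7.30% and 8.61%. About as many pairs were thus under 5% as above it in each library, and a smaller set had the retained form as the more abundant one. Both forms were listed in all 3 libraries for 584 pairs, and 41 pairs had neither form listed in some library. For 209 pairs the mean of the retained form was under 0.1 FPKM, a level at which a value is an estimate of transcript assembly and not an observed read count. Being bulk tissue, the libraries cannot tell apart fewer cells of a type and less RNA per cell.

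**Figure D1:**
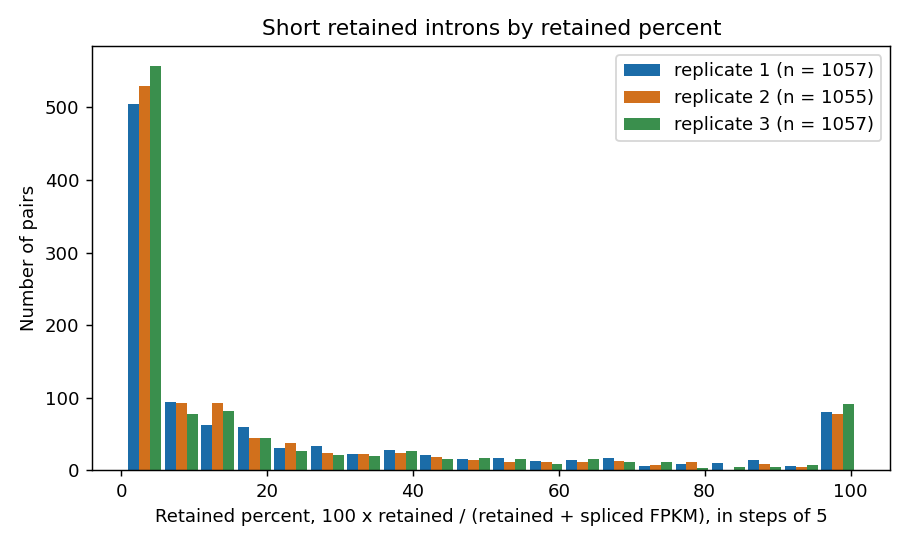
Number of short intron pairs (vertical axis) by retained percent in steps of 5 (horizontal axis), with 1 bar per library. The lowest step holds about as many pairs as all others together (47.8%, 50.2% and 52.7% in replicates 1, 2 and 3), and a smaller rise stands at the right end.

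Of the 1031 pairs with a value in every library, 90 were at 50% or more in all 3, 21 were at 95% or more in all 3, and 282 were under 5% in all 3. By the mean over libraries the most abundant retained form was in Apoc4, an apolipoprotein of lipid-carrying particles, in an interval of 171 bases that matches no annotated intron. It had 273, 153 and 147 FPKM, above Bsg in replicate 1 and below it in replicates 2 and 3. Its own spliced form was listed in replicate 2 alone, at 50.7 FPKM. Another 2 listed introns of Apoc4 overlap the interval in these libraries, and with them counted the retained percent was 72.2%, 56.6% and 57.3%. No annotated exon spans the interval, so the gene name rests on the deposited identifier alone. Bsg encodes basigin, a membrane glycoprotein that escorts lactate transporters to the cell surface. Its retained form had 168, 191 and 190 FPKM, which gave 97.0%, 100% and 99.9%. All 3 libraries were thus near the top of the scale for Bsg. Spr, sepiapterin reductase, which makes the cofactor tetrahydrobiopterin, had 96.3%, 96.7% and 99.8% for the shown intron, with the retained form at 72.3, 70.1 and 66.7 FPKM. F5, coagulation factor V, had an unannotated interval of 162 bases inside a coding exon at 81.9%, 100% and 100%. Its spliced form was listed in replicate 1 alone, at 7.83 FPKM.

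Complement C8 gamma (C8g), a subunit of the membrane attack complex made by hepatocytes, was the clearest case of both forms at a high level. The retained form of its 70-base intron, intron 5 of 6, had 106, 120 and 127 FPKM. The spliced form had 85.9, 73.9 and 56.4 FPKM. The retained percent was 55.3%, 61.9% and 69.2% (mean 62.1% ± 6.96, SD, n = 3), so the retained form exceeded the spliced form in every library. No other listed intron overlapped it. As the printed sequence has a length that is no multiple of 3 and holds no stop codon in frame, retention shifts the frame of the exon that follows.

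Among members with a mean of at least 5 FPKM and both forms in every library, the highest retained percents were in Gcgr, the glucagon receptor, and Nr1i3, the xenobiotic receptor CAR. They were followed by Nrbp1, Chkb (choline kinase beta), Slc38a3 (a glutamine transporter), Clcn4 (a chloride and proton exchanger), Spr, and Xpot (the export receptor of tRNA). The 82-base Gcgr intron is annotated only in a noncoding transcript, and its spliced form had 0.000327, 0.000373 and 0.000387 FPKM. Its retained form had the same FPKM as that of an 81-base coding intron of Gcgr, which was retained at 13.5%, 10.6% and 10.1%. The high percent therefore does not describe most Gcgr transcripts. Clcn4 had 100%, 98.4% and 96.8%, and Xpot had 98.3%, 98.2% and 95.5%. Nrbp1 had 100%, 99.9% and 99.9% for an 85-base intron before the start codon.

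At the other end stood Rpl13a, a ribosomal protein gene, whose shown intron had 0.000116%, 0.000156% and 0.000195%, with the spliced form at 123.3, 91.5 and 85.3 FPKM. Both Drap1 introns, in a repressor subunit of transcription initiation, and the introns of Aup1, Adck5 and Glmp were at 0.0167% or less in every library. By the mean over libraries, the highest retained form among them was that of the shown Drap1 intron, at 0.00122, 0.00200 and 0.00146 FPKM. In replicate 3 that of Glmp was higher, at 0.00154 FPKM. Differences in order at this level have no meaning. The 282 pairs under 5% in all libraries comprised 278 in coding sequence and 4 in noncoding transcripts, beside 967 of all 1072 members (90.2%) in coding sequence.

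**Figure D2:**
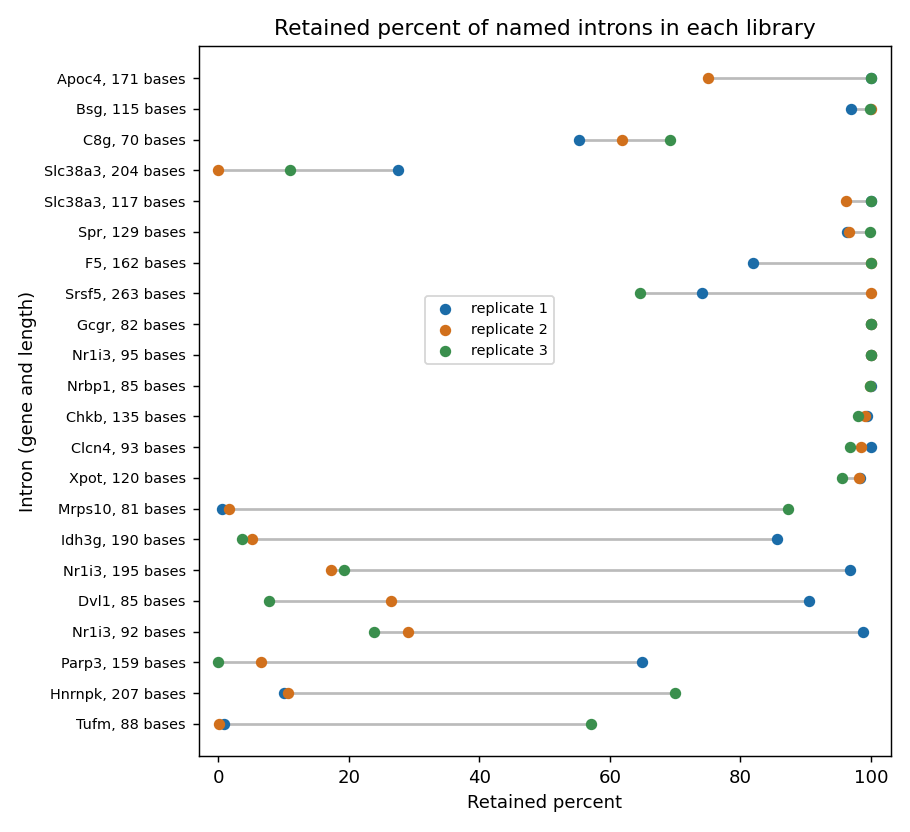
Retained percent (horizontal axis) of introns named by abundance, by high retention or by spread (vertical axis: gene and intron length), with 1 point per library and a grey line over the range. Bsg, Spr, Clcn4 and Xpot lie above 95% in every library, while Mrps10, Idh3g, Dvl1, Parp3, Hnrnpk and Tufm each have a single library far from the others.

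Retention varied with the annotation of the retained form. In 104 pairs an exon of a protein-coding transcript spans the intron, and their median retained percent was 50.2%, 56.5% and 51.9%. In 793 pairs only other annotated transcripts span it, and the median was 3.84%, 3.86% and 2.61%. In 175 pairs no annotated exon spans it, and the median was 11.3%, 0% and 6.82%. The first class was higher than the second in all 3 libraries. Of the 90 pairs at 50% or more in all libraries, 41 were in the protein-coding class, 39 in the class of other transcripts and 10 had no spanning exon. Comparing the 897 pairs with any spanning exon against the 175 without, the difference of medians was -1.41 ± 5.80 percentage points (SD, n = 3; exact two-sided sign-flip permutation test, p = 0.75) and took both signs. It was -30.5 points for pairs with both forms listed in every library. Of those 584 pairs 568 had a spanning exon, so the median without one rests on few pairs. Transcript assembly guided by annotation can favour annotated forms; its part in these values was not tested.

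**Figure D3:**
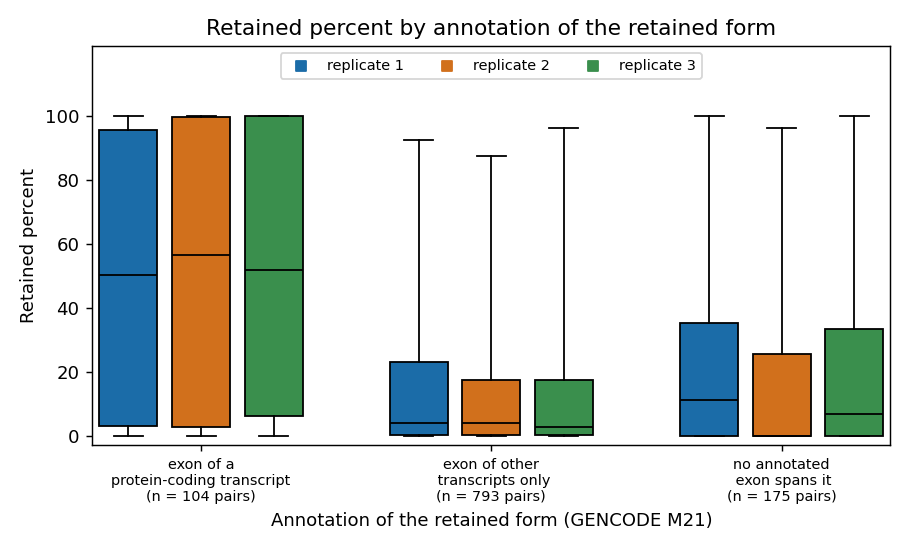
Retained percent (vertical axis) of short introns by the annotation of the retained form (horizontal axis), with 1 box per library. Boxes show the quartiles, the line is the median, and whiskers reach the 5th and 95th percentiles; the medians of the protein-coding class are 50.2%, 56.5% and 51.9%.

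Introns were also classed by the annotated transcripts that carry them, and those in coding sequence had the lower medians. The 967 pairs in coding sequence had medians of 4.53%, 3.29% and 2.42%, and the 56 other pairs at annotated introns had 77.6%, 67.1% and 88.1%. The difference was -74.2 ± 11 percentage points (SD, n = 3), with the same sign in 3 of 3 libraries. With 3 libraries the exact two-sided sign-flip permutation test cannot go below p = 0.25, which is the value here (0.312 after Benjamini-Hochberg adjustment over 5 such tests). Counting spliced introns that overlap the same interval, an alternative added after the data were seen, brought the difference to -22.3 points. The other pairs were 49 with introns annotated only in transcripts not classed as protein-coding, 6 before the start codon and 1 after the stop codon. The class of the 49 is no position in the gene: it includes introns of coding genes, such as Slc38a3, Gcgr and Chkb. How far this definition makes the difference was not tested. A further 49 pairs matched no annotated intron and had medians of 90.9%, 100% and 100%. Only 6 pairs were a first intron and 7 a last intron, so nearly all members lay in the interior of their transcripts.

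Within coding sequence, introns differed in what retention does to the reading frame. An intron can be read through when its length is a multiple of 3 and it holds no stop codon in frame. That held for 63 pairs, including the shown introns of Spr, Clcn4 and Xpot, and their medians were 16.5%, 8.50% and 9.02%. The other 758 pairs with a sequence had medians of 3.09%, 3.50% and 2.42%. The difference was 8.33 ± 4.46 percentage points (SD, n = 3; exact two-sided sign-flip permutation test, p = 0.25, adjusted 0.312), higher for read-through introns in 3 of 3 libraries. Annotation moved with it: 43 of the 63 are spanned by an exon of a protein-coding transcript and had medians of 26.1%, 27.3% and 24.2%. The 20 read-through pairs spanned by other transcripts alone had 3.80%, 0.975% and 0.810%. Pairs that could not be read through had 3.07%, 3.28% and 2.36% in that class (734 pairs), and 3.72%, 9.83% and 8.31% in the protein-coding class (24 pairs). Lengths that are multiples of 3 made up 34.1% of members, beside 32.4% of the 46790 annotated introns of the same length limit.

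The 390 pairs with introns of up to 100 bases had medians of 4.05%, 4.69% and 3.65%, and the 682 longer pairs had 7.61%, 5.13% and 3.94%. The difference was -1.43 ± 1.84 percentage points (SD, n = 3; exact two-sided sign-flip permutation test, p = 0.25, adjusted 0.312). Its SD exceeded its mean. The 29 pairs of up to 70 bases stood higher than the rest, at 22.9%, 20.8% and 15.7%. Over 1031 pairs, the mean retained percent and the length had a Pearson r of -0.05 and a Spearman rho of 0.02, given as a description, since pairs of 1 gene share transcripts. The 3 shortest intervals, in Slc4a1ap (27 bases), Aars2 (32) and Pcf11 (39), matched no annotated intron. Each lies inside an exon of a protein-coding transcript. The spliced form of each was listed in 1 library alone, at 1.51, 0.576 and 0.479 FPKM, so whether they are true introns is unknown. The longest included Ftcd, an enzyme of histidine breakdown in liver, whose 297-base intron had 50%, 31.9% and 37.5%.

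**Figure D4:**
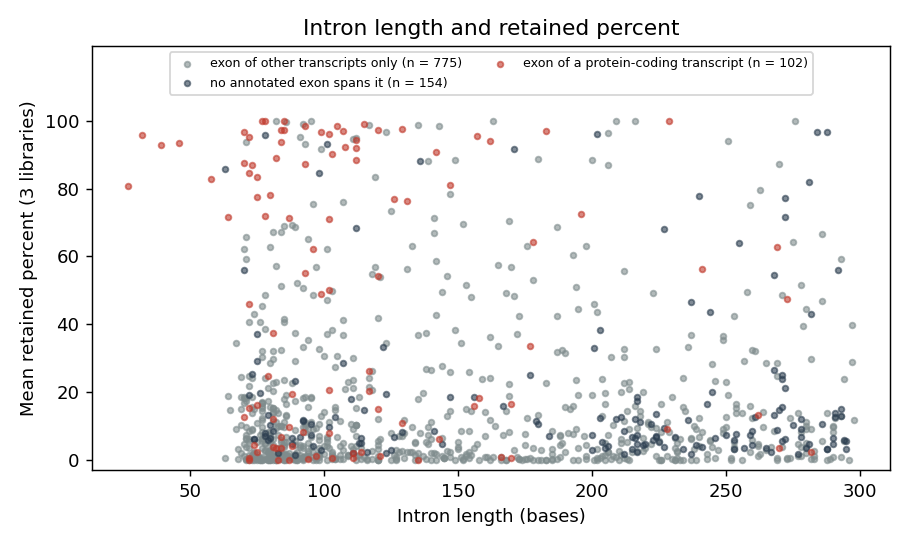
Mean retained percent over the 3 libraries (vertical axis) against intron length in bases (horizontal axis) for 1031 short intron pairs with a value in every library, coloured by the annotation of the retained form. From about 70 bases up, low and high percents stand side by side; the few shorter introns are sparse, and Pearson r is -0.05.

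Against introns over the limit, chosen by the same rule, the short introns had lower medians in each library. Both sets hold only pairs with a listed retained form, so the medians do not give how often introns of either length are retained. Short pairs were 1072 of the 2678 that met the rule at any length, while short introns made up 16.5% of annotated introns. The 1606 long pairs had medians of 11.9%, 7.82% and 7.66%. The difference of short minus long was -4.12 ± 1.33 percentage points (SD, n = 3; exact two-sided sign-flip permutation test, p = 0.25, adjusted 0.312), lower for short introns in 3 of 3 libraries. Restricted to pairs with both forms listed in every library, it was -13.5 points, and it was -6.69 to -6.09 points without any 1 of the libraries, with members chosen again. With retained forms of at least 0.1 FPKM, it was -1.15 points. The level of both forms together was alike, with medians of 5.59 FPKM in short and 5.26 FPKM in long pairs. An annotated exon of a protein-coding transcript spanned 9.70% of short and 1.74% of long pairs, and no annotated exon spanned 16.3% of short and 54.7% of long pairs; the part of annotation in the difference was not tested.

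Base composition was set beside that of the long introns. Sequences could be read for 883 short and 708 long introns spanned by an annotated exon, so introns without one are not covered. Median GC content was 55.4% in short and 47.6% in long introns. GT at the start with AG at the end was found in 868 of the 883 short introns (98.3%) and in 688 of the 708 long ones (97.2%), and GC at the start with AG at the end in 7 and 19. The start GTGAG was found in 34.4% of short and 22.3% of long introns, and GTAAG in 17.2% and 22.2%. The 20 bases before the end signal were 70% pyrimidine at the median in both. The start GTATCCT, which marks introns of the minor spliceosome, was searched on the gene's strand and found in 6 short introns (0.680%) and 7 long ones (0.989%). The short ones are in Polr2e, Rmc1, Drap1, Rfx5, Gbp6 and Rpl4; the sequence of Drap1 above shows it. Within the short introns, retention was higher with more GC: medians were 2.81%, 3.02% and 2.47% at up to 50% GC (229 pairs), 4.43%, 4.63% and 3.42% from 50 to 60% (411 pairs), and 9.76%, 7.82% and 5.62% above 60% (257 pairs). The order was the same in each library. Over 877 pairs the Pearson r was 0.09 and the Spearman rho 0.11, so GC content ordered single introns weakly.

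The level of both forms of a pair together moved with the percent too. This sum is also the denominator of the percent. It is no level of the gene, since pairs of Slc38a3 ranged from 77.9 to 539.5 FPKM. Pairs of 1 to 5 FPKM (482) had medians of 10.7%, 8.41% and 7.31%, pairs of 5 to 20 FPKM (416) had 5.24%, 3.82% and 3.24%, and pairs above 20 FPKM (174) had 2.23%, 1.66% and 1.93%. The FPKM minimum chose the members and its part in this order was not tested.

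Some high percents came from a rarely used splice site inside a region that was spliced otherwise, because the percent counts the pair's own spliced form alone. In all, 179 pairs overlapped another listed intron. Slc38a3, the glutamine transporter of the liver cells around the central vein, shows both cases from 1 retained form of 172, 0.156 and 61.9 FPKM. For the 204-base intron printed above, the spliced form had 451, 434 and 500 FPKM, which gave 27.6%, 0.0360% and 11.02%. A 117-base intron with the same start, ending 87 bases earlier, had a spliced form of 0.00622, 0.00631 and 0.00743 FPKM, and so 100%, 96.1% and 100%. With all overlapping spliced introns counted, the shorter intron had the percents of the longer one. In Nr1i3 the 95-base intron printed above and a 92-base intron share a start, and here the longer was the rarely used one. Its spliced form had 0.001249, 0.001485 and 0.001843 FPKM. The longer was near 100% in each library, and the shorter had 98.8%, 29.2% and 23.9%. With overlapping introns counted, the longer had the percents of the shorter. Of the 90 pairs at 50% or more in all libraries, 40 overlapped another listed intron, and 61 of the 90 remained at 50% or more in all libraries when overlapping introns were counted. Chkb had 99.3%, 99.1% and 98.0% before, and 65.8%, 71.8% and 72.1% after.

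**Figure D5:**
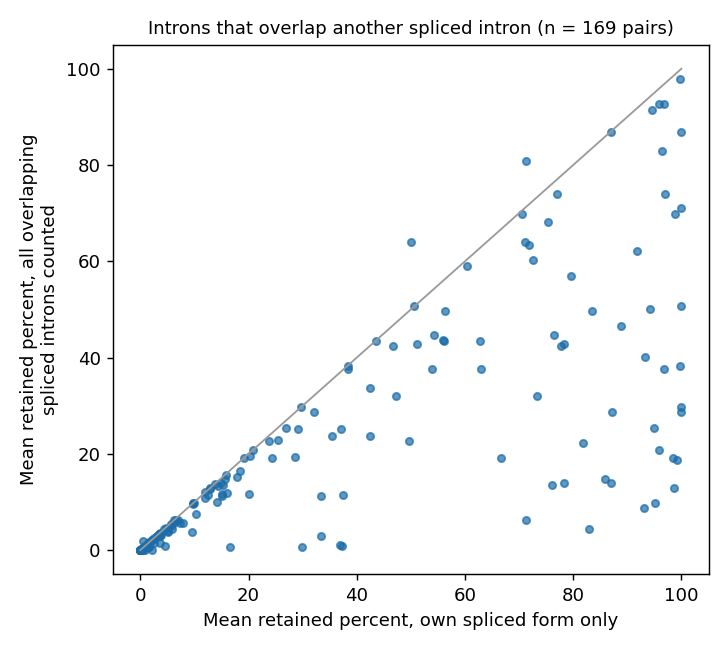
Mean retained percent with all overlapping spliced introns counted and both forms summed over outer exon ends (vertical axis) against the mean retained percent with the pair's own spliced form (horizontal axis), for 169 overlapping pairs with a value in every library; the grey line marks equal values. Many pairs near 100% on the horizontal axis lie far below the line, and a few lie above it because other retained forms were added.

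Libraries ordered the introns alike only in part. Over 1031 pairs Pearson r between libraries was 0.70, 0.69 and 0.72, and Spearman rho 0.46, 0.41 and 0.49. The SD of the retained percent over the 3 libraries had a median of 5.95 percentage points, with quartiles of 1.37 and 14.7, beside a median of 10.01 in 1533 long pairs. The range over libraries was under 5 points in 347 pairs and over 50 points in 107. No library was highest throughout: among the 584 pairs with both forms in every library, the highest percent was in replicate 1 for 218, in replicate 2 for 167 and in replicate 3 for 199.

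Among introns with both forms listed throughout and at least 5 FPKM, Mrps10, a mitochondrial ribosomal protein, had the largest SD, with 0.520%, 1.62% and 87.3%. Replicate 3 alone was high, and with overlapping introns counted all 3 libraries were under 1%. Idh3g, a subunit of the isocitrate dehydrogenase of the citric acid cycle, had 85.6%, 5.15% and 3.58%. Here replicate 1 alone was high. Nr1i3, which switches on drug-metabolising enzymes in hepatocytes, did the same at 2 introns. Its 92-base intron had a retained form of 88.1, 30.9 and 19.2 FPKM and a spliced form of 1.10, 74.98 and 61.1 FPKM. Its 195-base intron had 96.8%, 17.2% and 19.3%. An exon of Tomm40l lies on the opposite strand at all 3 short introns of Nr1i3; without knowing whether strand was used, reads of the 2 genes cannot be told apart. Dvl1, a relay of Wnt signals, had 90.6%, 26.5% and 7.81%, and Parp3, a DNA repair enzyme, had 64.9%, 6.48% and 0.00263%. In Hnrnpk, an RNA-binding protein, replicate 3 was the high library, at 10.01%, 10.7% and 69.97%. The same library was high for Tufm, the mitochondrial elongation factor, at 0.959%, 0.123% and 57.1%.

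A group with both forms at a substantial level was sought after the values were seen: both forms listed in every library, 10 to 90% in each, at least 20 FPKM for both forms together and no overlapping intron. It held 18 pairs, of which 14 have a stop codon in frame, 2 can be read through and 2 shift the frame without a stop. The share with a stop codon was 77.8%, beside 77.6% of the 821 members in coding sequence with a sequence. Of the 18, 12 had an SD above the median of all members, among them Hnrnpk. That median covers 1031 pairs, of which 282 were under 5% in all libraries, where the SD can only be small. The group was chosen at 10 to 90%, so this count cannot tell whether it varied more than other introns. C8g led it by the level of the retained form, followed by Ftcd. Ces3a, a liver carboxylesterase, had 16.8%, 14.4% and 11.4%, and it belongs to a family of close copies, which makes its value uncertain. Alas1, the rate-limiting enzyme of haem synthesis in liver, had 23.0%, 33.8% and 29.6% for its intron 4 of 10, with the retained form at 22.1, 14.2 and 25.1 FPKM. The 81-base intron of the glucagon receptor Gcgr had 13.5%, 10.6% and 10.1%. Ces3a, Alas1 and this Gcgr intron were among the 6 pairs of the group with an SD below the median of all members.

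Splicing regulators are known for retained introns and poison exons that limit their own protein. Of the serine and arginine-rich factors and their CLK kinases, 6 genes had a member. Clk1 was nearly fully spliced at 1.71%, 0.320% and 0.529%, and Clk4 had 8.65%, 6.79% and 8.71%. Clk3 had 99.6%, 99.8% and 99.8%, with a retained form of 5.67, 1.62 and 4.80 FPKM. Its spliced form had only 0.0231, 0.00344 and 0.00754 FPKM, and transcripts with other outer exon ends are not counted in this percent. With overlapping introns counted and both forms summed over outer exon ends, Clk3 had 98.9%, 96.5% and 98.4%. Srsf5 had 74.1%, 100% and 64.7%, with a retained form of 67.4, 41.2 and 34.8 FPKM, and 60.1%, 68.2% and 42.5% with overlapping introns counted. Srsf7 had 100%, 86.1% and 80.4%, and 45.4%, 48.5% and 45.8% with overlapping introns counted. Srsf1 had 100%, 17.8% and 100%, and 100%, 17.8% and 63.2% with overlapping introns counted. Its own spliced form was listed in replicate 2 alone, at 3.25 FPKM. Each 100% in Srsf1, Srsf5 and Srsf7 stands for a spliced form that was not listed. The introns of Srsf5 and Srsf7 are annotated only in transcripts not classed as protein-coding. The single pairs of Clk1 and Clk4 thus lay low on the scale and that of Clk3 near its top, where the percent can hardly vary. A single pair does not give the splicing of the whole gene. The 6 pairs of hnRNP proteins, a family of RNA-binding splicing factors, had medians of 12.9%, 10.6% and 9.58%, and Hnrnpm, whose intron can be read through, had 31.9%, 28.5% and 18.2%.

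Ribosomal protein genes had low medians. The 14 pairs of ribosomal protein symbols had medians of 1.99%, 1.07% and 0.787%; 1 of them, Rps6kb2, is a kinase and no ribosomal protein. Rps16 had 8.93%, 8.48% and 9.22%, a narrow range, with a retained form of 14.7, 10.3 and 12.2 FPKM. Rpl10a stood highest, at 89.8%, 90.6% and 98.9% for an intron of a noncoding transcript. Ribosomal proteins have many near-identical pseudogenes, so their values are uncertain. The 14 pairs of aminoacyl-tRNA synthetases, which load tRNA, had medians of 0.379%, 1.34% and 9.28%. Among respiratory chain subunits, Ndufv1 had 1.16%, 0.0203% and 1.08%, and Uqcrc1 had 0.147%, 0.933% and 0.0789%. Over all members the medians were 6.32%, 4.89% and 3.80%.

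Plasma proteins had 5 pairs, in Apoc4, F5, C8g and complement factor Cfb. Cfb, which starts the alternative pathway, had 3.35%, 0.0632% and 9.64% for a 74-base intron, with a spliced form of 122.5, 252 and 300 FPKM. Drug metabolism genes had 6 pairs, all in Cyp2d and Cyp3a genes or a Cyp2d pseudogene, whose close copies make them uncertain. Solute carriers had 32 pairs in 27 genes, with medians of 11.9%, 15.1% and 9.07%; 1 of them, Slc4a1ap, is an adaptor and no carrier. Among them Slc25a10, the mitochondrial dicarboxylate carrier, had 1.03%, 0.934% and 1.73%, and Slc25a39 had 5.59%, 34.7% and 7.11%. The 9 pairs of RNA helicases had medians of 6.60%, 0.00738% and 9.10%, and the 8 pairs of RNA polymerase II and mediator had 48.8%, 18.1% and 10.4%, highest in replicate 1.

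Most genes had 1 short retained intron: 632 had 1, 128 had 2, 39 had 3, 7 had 4, 3 had 5 and 1 had 6. Introns of 1 gene share transcripts and are not independent. The gene with 6 was Mlxipl, which encodes ChREBP, the factor that turns on sugar and fat synthesis genes after feeding. Its 6 introns fall into 3 clusters, since several share a start. The 120-base intron had 18.3%, 13.7% and 12.9%, against a spliced form of 91.7, 81.0 and 53.2 FPKM. Introns of 73 and 80 bases with the same start had 95.4%, 72.8% and 92.5%, and 95.2%, 46.9% and 92.5%. The 135-base intron of Mlxipl appeared with 2 sets of outer exon ends, with 53.3%, 43.0% and 14.3% in the more abundant pair. The 4 introns of Ankzf1 had mean retained percents from 24.0% to 69.2%. The 3 of Eif4a2, a translation initiation factor, ran from 0.0397% to 0.0659%. Those of Chkb spanned almost the whole scale, from 0.0342% to 98.8%.

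In 19 pairs the intron overlaps an annotated small RNA, with either strand counted. A small RNA that lies inside an intron can be released when the intron is processed. Medians of the 19 pairs were 1.32%, 2.57% and 3.50%. Gas5, a noncoding host of small nucleolar RNAs, had 2 nearly fully spliced introns and 1 with Mir5117 at 36.7%, 27.6% and 33.4%. Zfas1, a host of Snord12, had 18.5%, 14.0% and 15.2%. Rpl4 had 0.108%, 0.851% and 0.201% at the intron that overlaps Snord16a. An exon on the opposite strand overlapped 29 pairs, with medians of 6.08%, 4.98% and 4.60%.

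At the length limit, Alas1 (297 bases) had the values given above, Adcy6 (298) had 22.8%, 12.9% and 0%, and, just outside, Psme2 (299) had 1.19%, 3.04% and 7.08%. At the FPKM minimum, Ctps had 8.12%, 11.7% and 13.5% just inside and Dennd4b had 10.6%, 7.10% and 0% just outside.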

How the data were processed

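The authors deposited 1 table per library, which gives an FPKM for each event of transcript structure (per the file headers). HISAT2 2.0.1, HTSeq 0.6.1 and cutadapt 1.9.1 stand in the submitters' processing notes with mm9, without roles. The program behind the tables is unnamed: not given in the sources used here. Identical rows (1440 to 1519 a library) were removed. Of 6563 introns, 92.1% had the exact ends of a GENCODE M21 intron and 0 after a shift of 1000 bases, so positions were read as GRCm38. Events at 0 are left out, the lowest value is 1e-06 FPKM, and no counts are given, so depth is unknown and no counting interval was computed.

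Retained and spliced forms were paired by gene, strand, position and outer exon ends, in Python 3.11.15 with pandas 2.3.3, NumPy 2.4.6 and SciPy 1.17.1. A form not listed counted as 0. For 108 pairs the gene name was taken from the exact intron, since the identifier in the table was that of another gene. Medians of the retained percent were compared within each library, and the 3 differences were tested by an exact two-sided sign-flip permutation test, with Benjamini-Hochberg adjustment over 5 tests. The pairing and the test were tested on simulated data. The 3 libraries form 1 group, so no groups were compared.

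Introns named were the 8 with the highest retained form; among those of at least 5 FPKM with both forms in every library, the 8 highest and 6 lowest retained percents and the 8 largest SDs; the 3 shortest and 3 longest; members of the SR protein and CLK list; genes with 3 or more introns; and neighbours of the limits. Other names came from 10 gene lists or were chosen after their values were seen (Ces3a, Alas1, the second Gcgr intron, Zfas1 and the intron examples of the lists). Members and lists were chosen with earlier results of these data known. A few introns are not reported here.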

Additional observations from a re-analysis of the deposited data

How the results depend on the processing

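The median retained percent of the short introns, averaged over libraries, was 5.003%. It was 3.08% with a minimum of 5 FPKM, 6.46% with no minimum, 21.6% with a pseudocount of 1 FPKM and 10.8% with retained forms of at least 0.1 FPKM, and 6.10% to 6.94% when each library was left out in turn. The median SD between libraries, 5.95 points, was 3.84 with a minimum of 5 FPKM, 3.75 with both forms listed in every library, 7.33 with a length limit of 500, 8.33 with retained forms of at least 0.1 FPKM, and 4.28 to 5.08 without 1 library. The difference by annotated exon, -1.41 points, became -30.5 with both forms listed in every library, where 568 of 584 pairs had a spanning exon. It was 1.40 with a length limit of 500 and 5.27 with retained forms of at least 0.1 FPKM. Without 1 library it was -9.13 to -7.20. The cause was not tested. Without 1 library, short minus long ran from -6.69 to -6.09, up to 100 bases minus longer from -2.93 to -2.58, coding minus other from -75.8 to -68.1, and read-through minus other from 7.63 to 10.2. The other 4 differences kept their sign under every alternative that gave a value. The fixed lists held 102 introns, 56 with both forms listed in every library and 90 to 97 without 1 library. Of 38 named introns, a pseudocount of 1 FPKM moved 18 beyond their spread and counting overlapping introns moved 7; summing over outer exon ends moved none. A mean of 3 cannot move beyond its SD when 1 library is left out, so that setting says nothing of stability. Without replicate 3, Tufm went from a mean of 19.4% to 0.541%, Mrps10 from 29.8% to 1.07% and Hnrnpk from 30.2% to 10.4%; without replicate 1, Idh3g went from 31.5% to 4.37%. With GT and AG introns alone the difference by annotated exon gave no value, since every such intron has a spanning exon. The alternatives with overlapping introns and with at least 0.1 FPKM were chosen after seeing the data. No paired analysis was possible because the libraries form 1 group, so that no groups share replicate numbers; the differences tested were taken within each library. Retained forms under 0.1 FPKM carry no known depth, and percents near 0 or 100 rest on them.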
